A study of Mus musculus with 17 samples.

Results

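Circadian clock genes were followed in the hearts of mice that accumulate mutations in mitochondrial DNA (mtDNA). The genes were the rows of the count table named Clock, Per1, Per2, Per3, Cry1, Cry2, Dbp, Nr1d1, Nr1d2 and Tef, which gave 10 of 56748 genes. All 10 passed the filter on low counts and were among the 16195 genes tested. Poly(A)-selected RNA was sequenced from 17 hearts of mice aged 12 to 16 months, with 1 library per mouse, 8 from controls (Ctrl) and 9 from hMut mice. The hMut mice have the genotype Polg iMut/iMut; +/Ckmm-cre. The iMut allele expresses wild-type Polg until Cre removes a loxP-flanked cassette, after which a proofreading-deficient mtDNA polymerase is made. The muscle creatine kinase promoter drives this Cre, so the change is made in cardiomyocytes and in skeletal muscle, and the other cells of the heart keep the wild-type cassette. The labels call the other group control and give neither its Polg alleles nor whether it carries Cre. The mice had a C57BL/6N background, a 12-hour light and 12-hour dark cycle and no treatment, and the hour at which each heart was taken is not given in the sources used here.

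The circadian clock is a transcriptional loop that runs in nearly every cell, cardiomyocytes included. CLOCK and BMAL1 (listed in the count table under its older symbol, Arntl) bind E-boxes and switch on the Per and Cry genes, whose proteins return to the nucleus and inhibit CLOCK and BMAL1. The same pair switches on Nr1d1 and Nr1d2, nuclear receptors that repress Bmal1, and Dbp, Tef and Hlf, transcription factors that bind D-boxes. In the heart, mRNAs of these genes rise and fall over the day, Bmal1 close to opposite in phase to the Per, Nr1d and Dbp mRNAs, and the clock is known to time metabolic and electrical genes.

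The 3 binding motifs of the loop were looked for in the promoters of the members, because the DNA-binding proteins of the loop act on its genes through them. RefSeq promoter sequences (table build GRCm38.p6, placed in GRCm39 by exact match) matched 9 of the 10 members, and Per2 had no entry. The 9 members have 13 promoter windows, each 300 bases long with 250 bases before the transcription start and 50 after it. Exact matches on both strands were counted for the E-box CACGTG, for the D-box as TTATGTAA or TTACGTAA, and for the ROR element, AGGTCA with AANT directly before it, that NR1D and ROR proteins bind. An E-box was present in 2349 of the 32851 promoters examined (7.15%), a D-box in 347 (1.06%) and a ROR element in 72 (0.219%). The promoters examined do not cover every gene, since those of a whole chromosome were left out. Among the members, Per1, Cry1 and Tef had an E-box, Per3 had 2 D-boxes, and 0 had a ROR element in these windows. The E-box lay 166 bases before the start in Per1, 60 bases before it in Cry1, and 127 bases before it in the window of Tef that is shown. The D-boxes of Per3 lay 205 and 158 bases before its start. The second window of Bmal1 had a ROR element 28 bases after its start, and it is shown because the Nr1d proteins repress this gene. The sequences are written 5′ to 3′ in GRCm39, capitals mark the motif, and a match describes the letters only.
Per1, 250 bases before the start, E-box, chr11:68989525-68989774, plus strand: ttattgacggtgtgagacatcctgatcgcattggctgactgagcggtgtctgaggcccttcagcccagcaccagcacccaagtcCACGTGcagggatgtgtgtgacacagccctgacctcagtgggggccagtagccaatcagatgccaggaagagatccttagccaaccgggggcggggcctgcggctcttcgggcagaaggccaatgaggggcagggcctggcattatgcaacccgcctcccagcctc
Tef, 250 bases before the start, E-box, chr15:81686624-81686873, plus strand: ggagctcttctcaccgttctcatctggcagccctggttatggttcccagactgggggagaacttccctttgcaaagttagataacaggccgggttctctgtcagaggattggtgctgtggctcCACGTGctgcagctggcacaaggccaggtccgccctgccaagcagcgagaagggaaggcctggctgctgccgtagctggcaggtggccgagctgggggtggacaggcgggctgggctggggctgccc
Cry1, 250 bases before the start, E-box, chr10:85020919-85021168, minus strand: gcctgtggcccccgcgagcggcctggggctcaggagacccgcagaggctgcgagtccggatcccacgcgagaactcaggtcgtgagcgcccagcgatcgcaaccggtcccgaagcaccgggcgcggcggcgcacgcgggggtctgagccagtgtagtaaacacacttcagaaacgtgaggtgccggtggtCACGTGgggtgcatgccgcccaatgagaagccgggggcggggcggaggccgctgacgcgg
Per3, 250 bases before the start, D-boxes, chr4:151129123-151129372, minus strand: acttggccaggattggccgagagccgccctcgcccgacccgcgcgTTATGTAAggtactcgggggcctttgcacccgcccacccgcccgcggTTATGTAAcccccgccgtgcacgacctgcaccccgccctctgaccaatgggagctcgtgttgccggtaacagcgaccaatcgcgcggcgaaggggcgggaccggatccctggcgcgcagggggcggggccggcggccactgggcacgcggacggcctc
Arntl (Bmal1), 30 bases around the ROR element, chr7:112806735-112806764, plus strand: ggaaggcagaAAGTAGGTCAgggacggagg

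Total counts per library lay between 34425783 and 46486964 in Ctrl hearts and between 32915159 and 40175122 in hMut hearts, and the lowest count of a member in any heart was 109, for Per2. Levels are given as CPM, the count of a gene scaled to the library total after TMM normalization. Polg itself lay between 27.14 and 47.2 CPM in Ctrl hearts and between 47.05 and 65.06 CPM in hMut hearts, so the groups met at their edges, and a count per gene does not show whether the proofreading change is present. The summed level of 5 cardiomyocyte markers (Myh6, Tnnt2, Actc1, Ryr2, Pln) lay between 25860 and 34300 CPM over all hearts, as the tissue label says, while 3 atrial markers (Myl7, Myl4, Sln) summed to between 1.127 and 2.761 CPM. Sums of markers are scaled to the library total alone, without TMM.

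Before genotype was considered, the hearts stood apart in their clock genes. Ctrl replicates 5 to 8 and hMut replicate 8 had higher levels of Nr1d2, Dbp, Tef, Per1, Per2, Per3 and Cry2 than any other heart, and lower levels of Clock. Of the 10 members, 7 lay above the other 12 hearts in these 5, 1 lay below, and 2 (Nr1d1 and Cry1) overlapped. The share of all genes tested that lay apart in these 5 hearts was not computed, so the counts have no background. Genes outside the 10 lay above as well, among them Usp2, Dgat2, Klf9 and Tsc22d3, while others such as Fkbp5 and Nampt overlapped. Bmal1, the partner of CLOCK, was lowest in the same hearts, at 1.913 to 4.357 CPM against 14.32 to 25.82 CPM in the other 12. The opposite placing of Bmal1 and of Per2 put the log2 ratio of Per2 to Bmal1 between 1.98 and 3.70 in the 5 hearts and between -3.14 and -0.74 in the other 12, as the heatmap of clock genes across hearts shows. By genotype, the 5 hearts hold 4 of the 8 Ctrl hearts and 1 of the 9 hMut hearts, so the genotypes are unequally spread over this division. By sex, read from Xist counts, 3 of the 5 hearts and 2 of the other 12 came from females. Split by genotype, the females were 3 of the 8 Ctrl hearts and 2 of the 9 hMut hearts. Total counts were 35417235 to 46486964 in the 5 and 32915159 to 40175122 in the 12, and mtDNA-encoded genes held 21.62 to 26.65% and 15.94 to 30.91% of the counts. Whether the 5 hearts were taken at another hour was not tested, since no hour is known. Because these hearts were picked out by the clock genes themselves, no test was made between them and the others, and each genotype result is given with and without them.

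**Figure D1:**
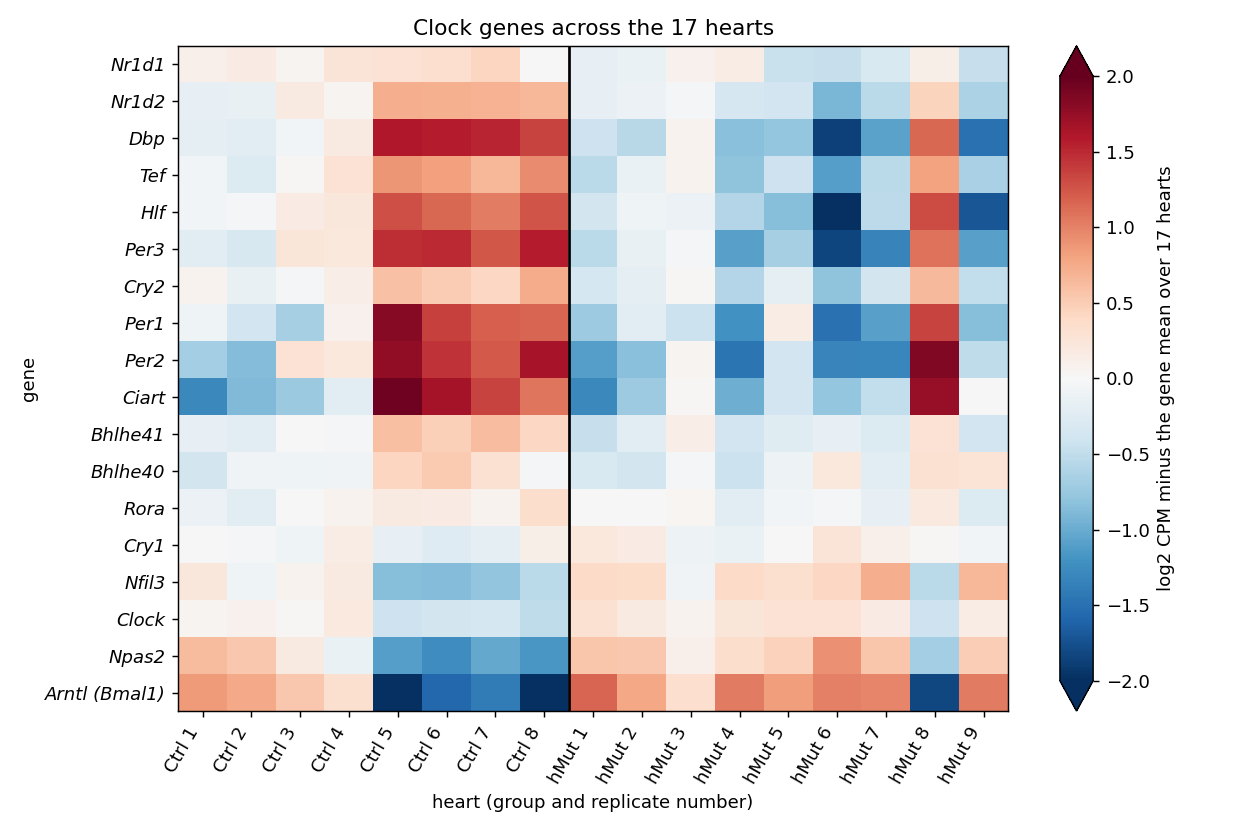
Log2 CPM of the 10 members and 8 further clock genes in each of 17 hearts, each gene minus its own mean over the hearts (colour bar, log2 units), with Ctrl hearts left of the black line and hMut hearts right of it. Ctrl 5 to 8 and hMut 8 are the columns with red Per, Dbp, Tef and Nr1d2 cells and blue Bmal1 (Arntl), Npas2, Clock and Nfil3 cells.

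The first comparison asked whether the members differed between hMut and Ctrl hearts. With all 17 hearts, 2 of the 10 members passed the test, Nr1d1 and Nr1d2, both lower in hMut hearts, and 0 passed in the other direction (edgeR's quasi-likelihood test, Benjamini-Hochberg adjusted p under 0.05 over all genes tested). Over all genes, 4.62% passed, 1.14% as lower in hMut and 3.48% as higher. The median log2 fold change of the 10 members was -0.69, against 0.0023 over all genes tested. At an unadjusted p under 0.05, 9 of the 10 members passed, all but Cry1, as did 25.8% of all genes tested. DESeq2 called 6 members, all lower in hMut hearts (Nr1d1, Nr1d2, Per3, Dbp, Cry2 and Tef), where it called 9.19% of genes. Without Ctrl 5 to 8 and hMut 8, 0 of the 10 passed in edgeR, where 0.448% of genes passed, and 6 had an unadjusted p under 0.05, as did 13.7% of genes. These hearts were left out for their values of the members, and most were Ctrl hearts with high levels. Leaving them out therefore shrinks most of the fold changes by itself, and this fit is no independent check on genotype. It also holds fewer hearts, 4 Ctrl and 8 hMut. When the log2 level of Bmal1 was added to the fit as a stand-in for the phase of the clock, 0 of the 10 passed, where 1.23% of genes passed, and 5 had an unadjusted p under 0.05, as did 18.2% of genes. Bmal1 is itself a clock gene, so this term also takes out any genotype difference that Bmal1 shares with the members. The direction was the same in all 4 edgeR fits drawn in the plot of fold changes for each of the 10 members. In bulk tissue, fewer cells of a type and less RNA per cell cannot be told apart. Nothing beyond 1 library per mouse is stated about litters or days, so the p-values measure the spread between these hearts.

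**Figure D2:**
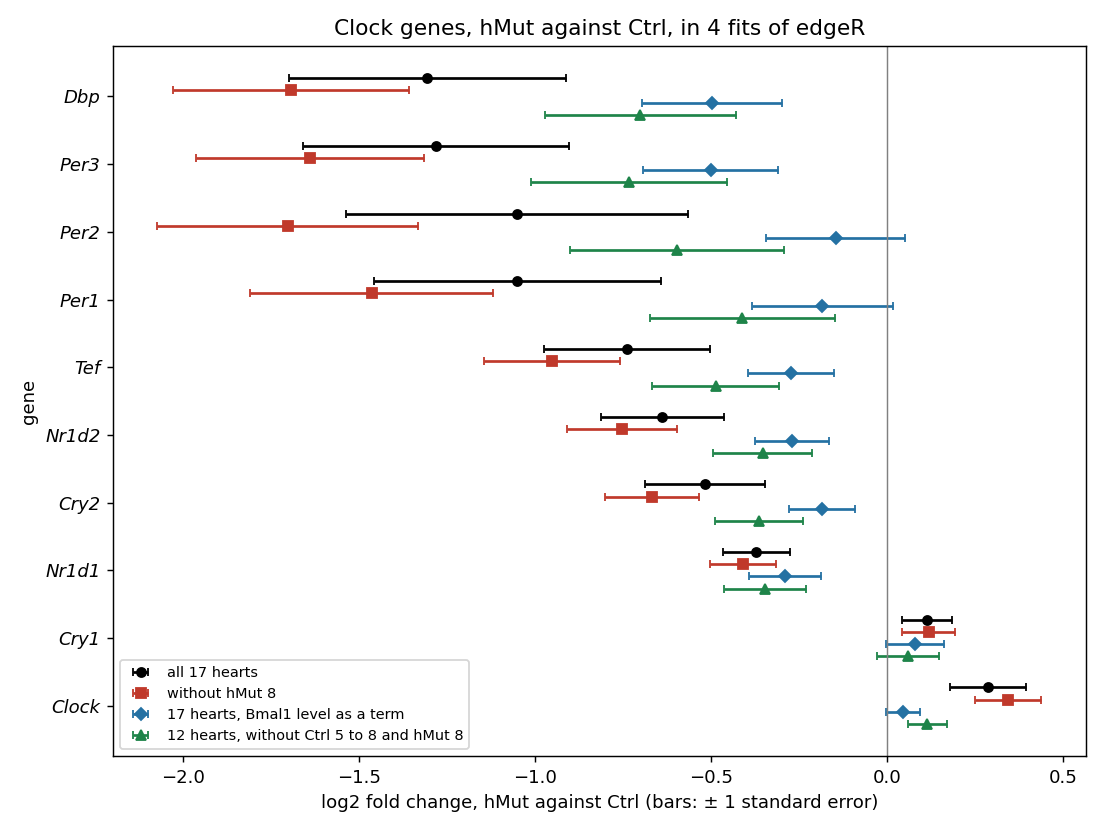
Log2 fold change of the 10 members, hMut against Ctrl (x axis), in 4 edgeR fits, with bars of 1 standard error on either side. All 8 members left of 0 with all 17 hearts stay left of 0 in the other fits, nearer to it in the 12-heart fit and in the fit with the Bmal1 term, and farther from it without hMut 8.

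Nr1d1 and Nr1d2 encode REV-ERBα and REV-ERBβ, the repressors of Bmal1. Nr1d1 was 93.78 CPM in the lowest Ctrl heart, 108.5 at the median and 126.4 in the highest, and 68.03, 83.93 and 103.6 CPM in hMut hearts. The groups overlapped, with 6 of 9 hMut hearts below every Ctrl heart and 5 of 8 Ctrl hearts above every hMut heart. The means were 108.5 ± 11.12 (SD, n = 8) and 83.87 ± 14.73 (SD, n = 9), a log2 fold change of -0.37 (SE 0.095, edgeR adjusted p = 0.0340). Nr1d1 is the member whose difference moved least with the 5 hearts, which overlapped the rest for this gene. In the 12 hearts, the 4 Ctrl hearts lay between 97.7 and 111.8 CPM, 6 of the 8 hMut hearts were below them all, and the log2 fold change was -0.35 (SE 0.12, edgeR adjusted p = 0.237). With the Bmal1 term it was -0.29 (SE 0.10, edgeR adjusted p = 0.162).

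Nr1d2 was 104.6 CPM in the lowest Ctrl heart, 158.5 at the median and 194.0 in the highest, and 61.97, 92.87 and 158.7 CPM in hMut hearts. The highest hMut value belonged to hMut 8, and the Ctrl values above 158.7 to Ctrl 5 to 8. Across groups, 6 hMut hearts were below every Ctrl heart, and the log2 fold change was -0.64 (SE 0.17, edgeR adjusted p = 0.0442). In the 12 hearts, Ctrl lay between 104.6 and 132.3 CPM and hMut between 61.97 and 113.9, with 6 of 8 hMut hearts below every Ctrl heart. The log2 fold change there was -0.35 (SE 0.14, edgeR adjusted p = 0.309), and with the Bmal1 term -0.27 (SE 0.11, edgeR adjusted p = 0.201).

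Dbp and Tef encode 2 of the 3 PAR-domain transcription factors that carry the clock's phase to D-box genes. Dbp was 34.74 CPM in the lowest Ctrl heart, 74.17 at the median and 121.4 in the highest, and 11.02, 23.43 and 89.53 CPM in hMut hearts. The Ctrl hearts split into 34.74 to 45.6 CPM for Ctrl 1 to 4 and 102.7 to 121.4 CPM for Ctrl 5 to 8, with 7 of 9 hMut hearts below them all. The log2 fold change over 17 hearts was -1.31 (SE 0.39, edgeR adjusted p = 0.0613), the largest in size among the members. In the 12 hearts it was -0.70 (SE 0.27, edgeR adjusted p = 0.300), and 7 of 8 hMut hearts lay below every Ctrl heart.

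Tef was 99.57 CPM in the lowest Ctrl heart, 168.7 at the median and 230.4 in the highest, and 55.62, 82.46 and 210.0 CPM in hMut hearts. As for Dbp, hMut 8 stood with Ctrl 5 to 8, and 6 hMut hearts were below every Ctrl heart. The log2 fold change was -0.74 (SE 0.24, edgeR adjusted p = 0.0744) over 17 hearts and -0.49 (SE 0.18, edgeR adjusted p = 0.286) over 12. Hlf, the third factor of this class and not a member, separated the genotypes further in the 12 hearts, where it was 22.48 to 27.29 CPM in Ctrl and 5.377 to 22.01 in hMut, with 8 of 8 hMut hearts below every Ctrl heart. Its log2 fold change over 17 hearts was -0.99 (SE 0.37, edgeR adjusted p = 0.114). Nfil3, which encodes a repressor that competes for D-boxes, was placed the other way, at 10.25 to 12.78 CPM in Ctrl and 10.36 to 18.09 CPM in hMut within the 12 hearts, with 7 of 8 hMut hearts above every Ctrl heart. Its log2 fold change over 17 hearts was 0.61 (SE 0.19, edgeR adjusted p = 0.0689).

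**Figure D3:**
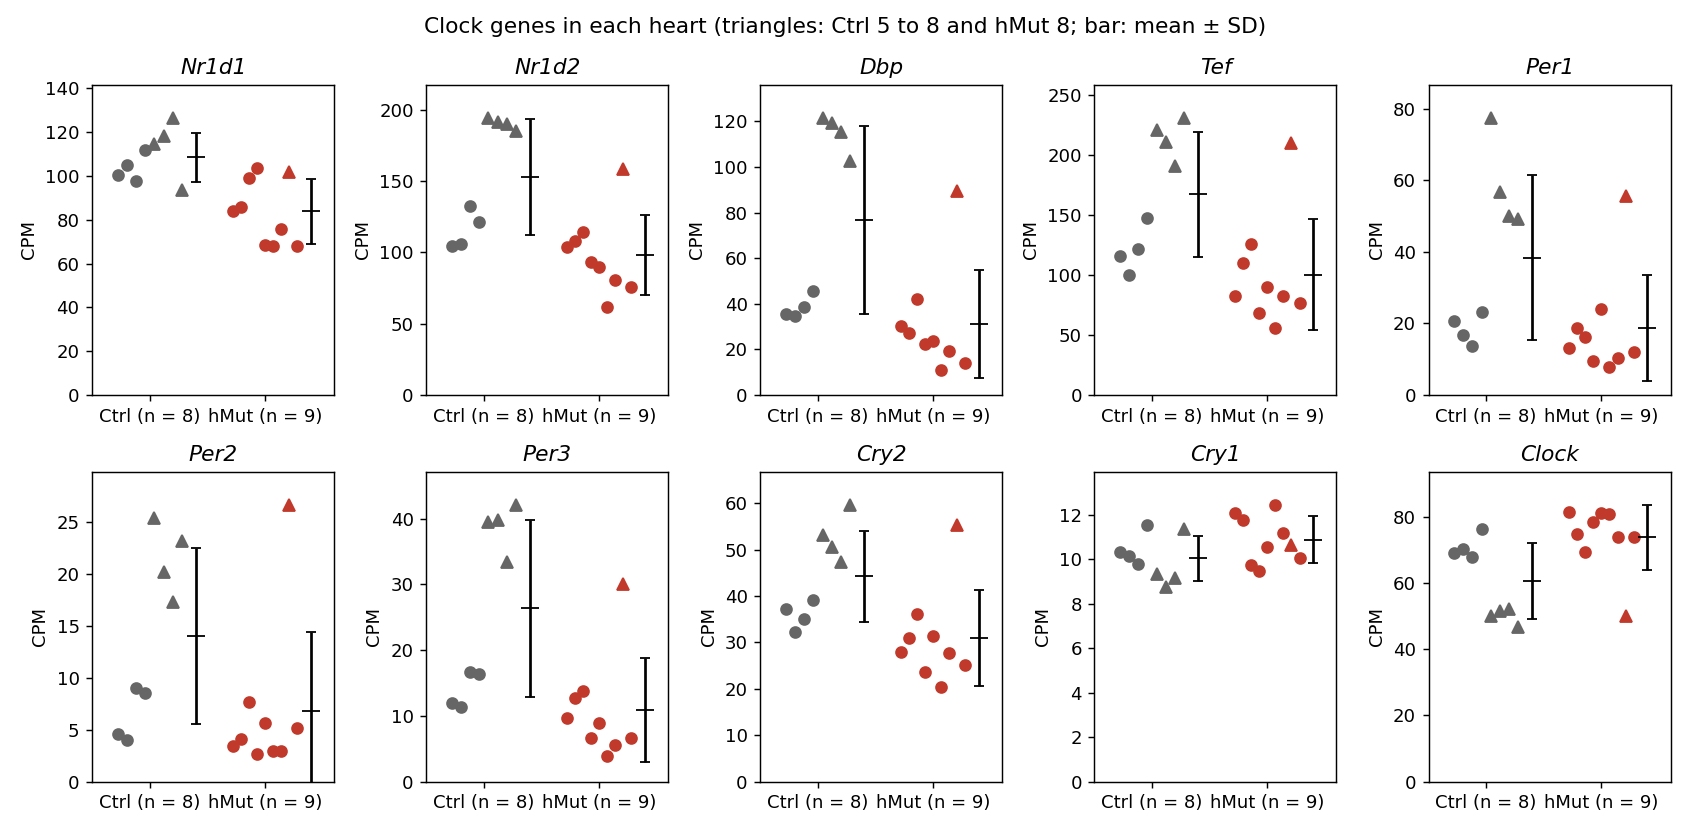
CPM of each member in each heart (y axes from 0), Ctrl in grey and hMut in red, with the mean and SD beside each group and triangles for Ctrl 5 to 8 and hMut 8. Triangles sit above all circles in 7 panels and below them in Clock, while in Nr1d1 and Cry1 they mix, and the SD bar of Per2 in hMut hearts reaches below the axis.

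The Per genes encode the period proteins, the negative arm of the loop. Per1 responds soonest to light, feeding and stress hormones, and it was 13.67 CPM in the lowest Ctrl heart, 36.04 at the median and 77.34 in the highest, against 7.722, 13.15 and 55.71 CPM in hMut hearts. The groups overlapped widely, and 5 hMut hearts lay below every Ctrl heart. Its log2 fold change was -1.05 (SE 0.41, edgeR adjusted p = 0.125), and -0.41 (SE 0.26, edgeR adjusted p = 0.480) in the 12 hearts, where 5 of 8 hMut hearts were below and 1 was above every Ctrl heart.

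Per2 had the lowest counts of the members. It was 4.01 CPM in the lowest Ctrl heart, 13.17 at the median and 25.44 in the highest, and 2.649, 4.099 and 26.66 CPM in hMut hearts. The highest Per2 level of all 17 hearts was therefore in an hMut heart, hMut 8, while 4 other hMut hearts lay below every Ctrl heart. Its log2 fold change was -1.05 (SE 0.49, edgeR adjusted p = 0.181), and -0.60 (SE 0.30, edgeR adjusted p = 0.406) in the 12 hearts.

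Per3 was 11.35 CPM in the lowest Ctrl heart, 25.04 at the median and 42.1 in the highest, and 3.932, 8.891 and 30.09 CPM in hMut hearts. It came nearest of the Per genes to the threshold, with 6 hMut hearts below every Ctrl heart and a log2 fold change of -1.28 (SE 0.38, edgeR adjusted p = 0.0576). In the 12 hearts this was -0.73 (SE 0.28, edgeR adjusted p = 0.295), and 6 of 8 hMut hearts remained below every Ctrl heart. With the Bmal1 term, the 3 Per genes had log2 fold changes of -0.18 (Per1, SE 0.20), -0.15 (Per2, SE 0.20) and -0.50 (Per3, SE 0.19), with edgeR adjusted p of 0.635, 0.706 and 0.195.

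Cry1 and Cry2 encode the cryptochromes, which bind the period proteins and inhibit CLOCK and BMAL1. Cry2 was 32.14 CPM in the lowest Ctrl heart, 43.15 at the median and 59.63 in the highest, and 20.35, 27.88 and 55.38 CPM in hMut hearts. Of 9 hMut hearts, 7 were below every Ctrl heart, and the same number of 8 were below in the 12-heart set, where Ctrl lay between 32.14 and 39.08 CPM. The log2 fold change was -0.52 (SE 0.17, edgeR adjusted p = 0.0811) over 17 hearts, -0.36 (SE 0.13, edgeR adjusted p = 0.252) over 12 and -0.19 (SE 0.094, edgeR adjusted p = 0.300) with the Bmal1 term.

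Cry1 differed from Cry2 in its pattern. It lay between 8.742 and 11.54 CPM in Ctrl hearts, with a median of 9.968, and between 9.475 and 12.44 CPM in hMut hearts, with a median of 10.64. The groups overlapped, the 5 hearts mixed with the others, and the log2 fold change was 0.11 (SE 0.071, edgeR adjusted p = 0.308). Over the 12 hearts it was 0.061 (SE 0.088, edgeR adjusted p = 0.752).

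Clock, which encodes the activator, was 46.76 CPM in the lowest Ctrl heart, 60.01 at the median and 76.27 in the highest, and 50.03, 74.75 and 81.52 CPM in hMut hearts. It was low where the Per genes were high, at 46.76 to 52.26 CPM in Ctrl 5 to 8 and hMut 8 and at 67.76 to 81.52 CPM elsewhere. Its log2 fold change was 0.29 (SE 0.11, edgeR adjusted p = 0.119), 0.11 (SE 0.056, edgeR adjusted p = 0.383) over the 12 hearts and 0.045 (SE 0.048, edgeR adjusted p = 0.625) with the Bmal1 term. Bmal1 had a log2 fold change of 0.92 (SE 0.46, edgeR adjusted p = 0.215), with 5 of 8 hMut hearts above every Ctrl heart in the 12-heart set. Npas2, which can stand in for CLOCK, had one of 0.65 (SE 0.28, edgeR adjusted p = 0.160).

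One heart, hMut 8, weighed on these calls. Without it, 9 of the 10 members passed, 8 as lower in hMut hearts and Clock as higher, and Cry1 did not (0.12, edgeR adjusted p = 0.311), where 5.42% of all genes passed. The log2 fold changes without it ran from -0.41 for Nr1d1 (edgeR adjusted p = 0.0181) to -1.70 for Per2 (edgeR adjusted p = 0.0142). Dbp was at -1.69 (edgeR adjusted p = 0.00763), Per3 at -1.64 (edgeR adjusted p = 0.00754) and Clock at 0.34 (edgeR adjusted p = 0.0422). This fit keeps Ctrl 5 to 8, so its Ctrl group holds hearts of both kinds and its hMut group holds 1 kind. Leaving out any one of hMut 5, 6, 7 or 9 or of Ctrl 5, 6 or 7 left 0 members past the threshold, in fits that called 2.45 to 3.09% of all genes. Leaving out any one of Ctrl 2, 3 or 8 or of hMut 3 or 4 left 1, with 2.62 to 3.91% of genes called, and without hMut 2 there were 3, with 11.1% called.

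Of the other clock genes on a list of 32, among them Bmal1, the ROR receptors, the casein kinases and the F-box proteins that turn over PER and CRY, 0 passed in edgeR, 13 had an unadjusted p under 0.05, and DESeq2 called 4, with 2 higher and 2 lower. Over all genes tested, 4.62% passed in edgeR, 25.8% had an unadjusted p under 0.05 and DESeq2 called 9.19%. The median log2 fold change of the 32 was -0.048. In the 12-heart fit 0 of the 32 passed, where 0.448% of genes passed, and 5 had an unadjusted p under 0.05, as did 13.7% of genes. Ciart, a CLOCK and BMAL1 inhibitor, was higher in the 5 hearts, as the Per genes were. It was 11.35 to 20.83 CPM there and 2.152 to 5.453 CPM in the other 12. Its log2 fold change was -0.83 (SE 0.49, edgeR adjusted p = 0.282). Within the 12 hearts Ciart was not placed by genotype as the Per genes were. For Ciart, 0 of 8 hMut hearts lay below every Ctrl heart and 2 lay above. For Per1, Per2 and Per3, 5, 4 and 6 lay below, and 1, 0 and 0 above. Bhlhe41 and Bhlhe40, repressors that compete for E-boxes, had log2 fold changes of -0.42 (SE 0.13, edgeR adjusted p = 0.0750) and -0.16 (SE 0.13, edgeR adjusted p = 0.446). Rora, an activator of Bmal1, had one of -0.13 (SE 0.074, edgeR adjusted p = 0.282).

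The second comparison asked how the Per and Nr1d genes moved together across hearts, as a check on the hour of harvest. Since the 17 hearts fall into separate sets, correlations of log2 CPM were computed in the 12-heart set, for 66 pairs of the 10 members with Bmal1 and Npas2. Per3 and Nr1d2 rose and fell together most closely of the 6 Per and Nr1d pairs (Pearson's r = 0.960, two-sided permutation p = 1e-05, the smallest that 100000 resamples can give, adjusted p = 0.000165 over 66 pairs). Spearman's rho was 0.958 (permutation adjusted p = 0.00066). Without the 2 hearts farthest from the Per3 median, r was 0.923 (permutation adjusted p = 0.00165), and with each genotype centred on its mean it was 0.938 (permutation adjusted p = 0.00066). Within the 8 hMut hearts of the set, r was 0.938 (exact permutation p = 0.000744, adjusted p = 0.0164). For the same 8 hearts a rho of 0.881 did not pass after adjustment (exact permutation p = 0.00724, adjusted p = 0.0797).

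The other 5 pairs were looser. Per3 with Nr1d1 gave r = 0.698 (permutation p = 0.0135, adjusted p = 0.0296) and rho = 0.587 (permutation p = 0.0484, adjusted p = 0.0930). Per2 with Nr1d2 gave r = 0.644 (permutation p = 0.0239, adjusted p = 0.0450) and rho = 0.650 (permutation p = 0.0260, adjusted p = 0.0637). Neither passed without the 2 farthest hearts (r = 0.547, permutation adjusted p = 0.182, and r = 0.413, permutation adjusted p = 0.317) or with the genotypes centred (r = 0.486, permutation adjusted p = 0.191, and r = 0.508, permutation adjusted p = 0.166). Per1 with Nr1d2 gave r = 0.622 and rho = 0.539 (permutation p = 0.0304 and 0.0751, adjusted p = 0.0542 and 0.118). The loosest pairs were those of Nr1d1 with Per1 (r = 0.344, rho = 0.399, permutation p = 0.270 and 0.201, adjusted p = 0.324 and 0.255) and with Per2 (r = 0.328, rho = 0.210, permutation p = 0.294 and 0.514, adjusted p = 0.347 and 0.565). Without the 2 farthest hearts r was 0.611, 0.495 and 0.0358 for these 3 pairs, in the order given. All 6 values of r were above 0.

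Bmal1 moved against the members. Of its 10 pairs with them in the 12 hearts, 8 values of r were below 0 and 6 of these passed, while the pairs with Clock and Cry1 were above 0. With the genotypes centred, 3 of the 8 still passed (Per2, Cry2 and Tef), and Per3 (r = -0.644, permutation adjusted p = 0.0543), Dbp (r = -0.595, permutation adjusted p = 0.0971) and Nr1d2 (r = -0.538, permutation adjusted p = 0.142) did not. Per2 with Bmal1 gave r = -0.840 (permutation p = 0.00101, adjusted p = 0.00476) and rho = -0.741 (permutation p = 0.00816, adjusted p = 0.0256), with r = -0.743 (permutation adjusted p = 0.0432) without the 2 farthest hearts and r = -0.789 (permutation adjusted p = 0.00865) with the genotypes centred. Tef with Bmal1 gave r = -0.842 (permutation p = 0.00045, adjusted p = 0.00297) and rho = -0.888 (permutation p = 0.00026, adjusted p = 0.00214), and r = -0.852 (permutation adjusted p = 0.0114) without the 2 farthest. Nr1d1 with Bmal1 gave r = -0.581 and rho = -0.503 (permutation p = 0.0482 and 0.0988, adjusted p = 0.0741 and 0.142), and r = -0.482 (permutation adjusted p = 0.234) without the 2 farthest. Among the 45 pairs of members, 22 passed as positive and 0 as negative, and 18 passed as positive with the genotypes centred. The share of pairs of other genes that would pass in these hearts was not computed. The counts of pairs, those of Bmal1 included, therefore do not show that clock genes move together more than other genes do. The 12 hearts were chosen by clock genes, and the values of a heart share its library and normalization factor.

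**Figure D4:**
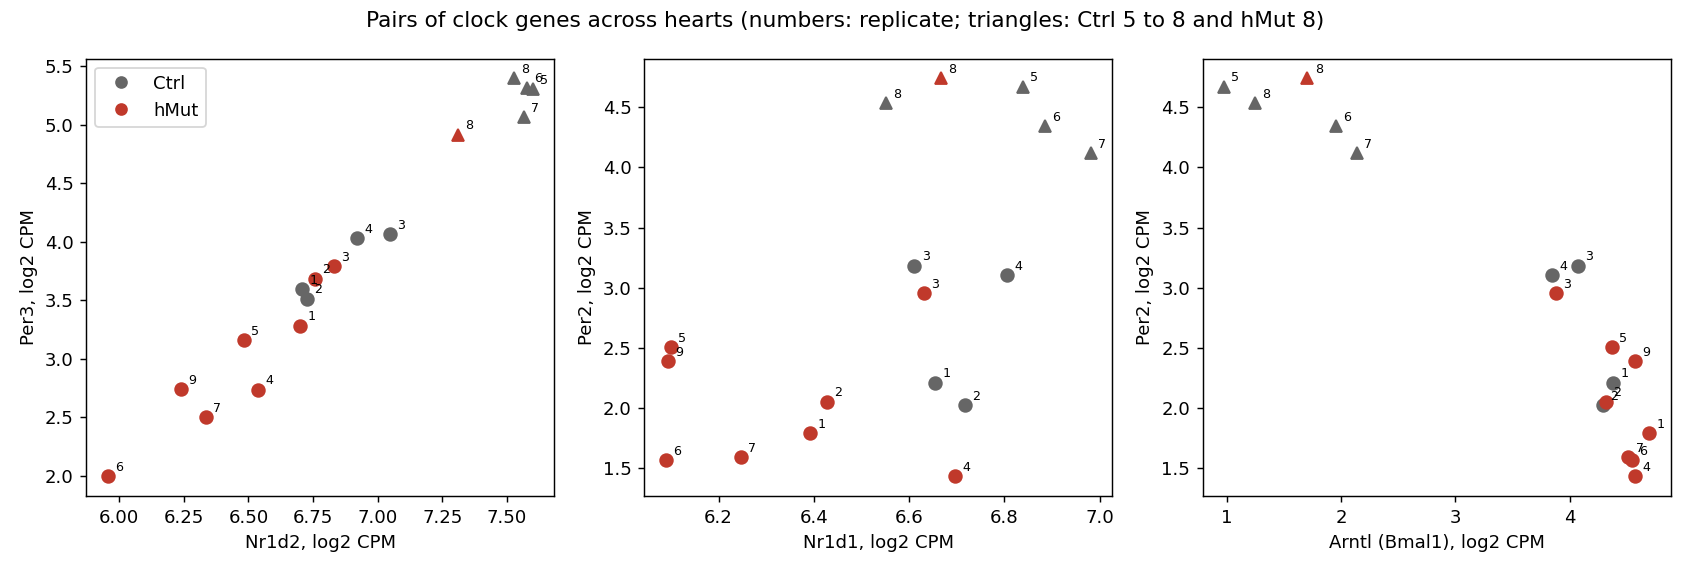
Log2 CPM of Per3 against Nr1d2, Per2 against Nr1d1 and Per2 against Bmal1 (Arntl), 1 point per heart with its replicate number, Ctrl in grey, hMut in red, triangles for Ctrl 5 to 8 and hMut 8. The 12 circles rise together in the first panel (r = 0.960), scatter in the second (r = 0.328) and fall in the third (r = -0.840), and the 5 triangles lie at the high end of Per3 and Per2.

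Compared per kilobase of gene model, the mean levels in Ctrl hearts ran in the order Nr1d1 (35.27 CPM per kb), Nr1d2 (28.27), Dbp (25.62), Tef (21.22), Cry2 (7.006), Per1 (6.813), Clock (4.404), Cry1 (3.007), Per3 (2.747) and Per2 (2.396). In hMut hearts Nr1d1 (27.26) and Nr1d2 (18.18) still led, Tef (12.72) stood above Dbp (10.38), and Clock (5.372) stood above Cry2 (4.897), Per1 (3.299) and Cry1 (3.256). Per2 (1.161) and Per3 (1.133) were lowest. Steps between neighbours such as Cry2 and Per1 or Cry1 and Per3 in Ctrl hearts were within the spread over hearts shown by their ranges.

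The members also differed in how much they varied among hearts of one genotype. The SD of log2 CPM within Ctrl hearts was 1.04 for Per2, 0.93 for Per1, 0.85 for Dbp and 0.81 for Per3, against a median of 0.16 over the genes tested. These 4 members were at or above the 90th percentile of that SD in Ctrl hearts (97.8 to 99.1) and in hMut hearts (96.1 to 98.0). Tef, Nr1d2, Cry2 and Clock came next in Ctrl hearts, at percentiles 88.2, 83.1, 76.1 and 71.2. Nr1d1 and Cry1, with SDs of 0.15 and 0.14, were at percentiles 46.3 and 44.8. The spread of the first 4 came largely with the 5 hearts, which in hMut means hMut 8 alone. Without them the SDs over 4 Ctrl hearts were 0.60 for Per2, 0.33 for Per1, 0.18 for Dbp and 0.29 for Per3, at percentiles 94.1, 81.0, 59.9 and 76.8. Over 8 hMut hearts the percentiles of these 4 were 85.9 to 89.5.

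Some members share sequence with other genes, and the strand setting of the counting is not given in the sources used here. Nr1d1 overlaps Thra, a thyroid hormone receptor gene on the opposite strand with a median count of 3473, over 1075 bases. Dbp overlaps Sphk2 on the opposite strand over 737 bases, with a median Sphk2 count of 703. These are overlaps of the gene spans in the count table. By the exons of a separate annotation of the same build, Nr1d1 shares 1694 bases with Thra, and Dbp shares 539 with Sphk2. The values of Nr1d1 and Dbp, and those of Cry2 and Tef, which overlap noncoding genes on the opposite strand with median counts of 9 and 2, are to that extent uncertain. Per3 lies within the span of Camta1 on the same strand, with which its exons share 0 bases.

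Lists of genes that answer to the clock, to glucocorticoid hormones, to temperature and to acute stimulation were read from the same fit, since each of these also acts on Per genes. Beside their counts, the shares over all genes were 4.62% in edgeR, 25.8% at an unadjusted p under 0.05 and 9.19% in DESeq2. Of 14 clock output genes, 0 passed in edgeR, 6 had an unadjusted p under 0.05, DESeq2 called 1 and the median log2 fold change was -0.25. Usp2 had a log2 fold change of -0.55 (edgeR adjusted p = 0.0870), Nampt one of -0.24 (edgeR adjusted p = 0.0882) and Dgat2 one of -0.40 (edgeR adjusted p = 0.111). Of 9 glucocorticoid-responsive genes tested, 0 passed in edgeR, 3 had an unadjusted p under 0.05, DESeq2 called 1 and the median was 0.064. In that list the smallest p belonged to Errfi1 (0.37, edgeR adjusted p = 0.107), Klf9 (-0.27, edgeR adjusted p = 0.147) and Fkbp5 (0.66, edgeR adjusted p = 0.188).

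The heart hMut 8 had the highest level of all 17 hearts for 4 of the 9 glucocorticoid-responsive genes tested. Fkbp5, a feedback regulator of the glucocorticoid receptor, was 82.02 CPM in hMut 8 and 12.04 to 22.13 CPM in the other 16 hearts. Zbtb16 and Tsc22d3 are given beside it, as are Mt1, Sgk1 and Ddit4, a choice made once their values were known. Zbtb16 was 197.8 CPM in hMut 8, with 98.63 in Ctrl 5 next, and Tsc22d3 was 104.4 CPM, with 100.4 in Ctrl 5 next. Per1, whose gene also answers to these hormones, was 55.71 CPM in hMut 8 and 49.04 to 77.34 CPM in Ctrl 5 to 8, whose Fkbp5 levels were 12.61 to 22.13 CPM. Of the rest of the list, Mt1 was highest in hMut 8 (111.7 CPM, against 38.74 to 90.01 in the other hearts), Klf9 ranked 2 and Sgk1 and Dusp1 ranked 4 of 17, while Errfi1 (18.65 CPM, rank 8) and Ddit4 (33.9 CPM, rank 9) were in the middle. The part of hormone level in the clock values of hMut 8 was not tested.

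**Figure D5:**
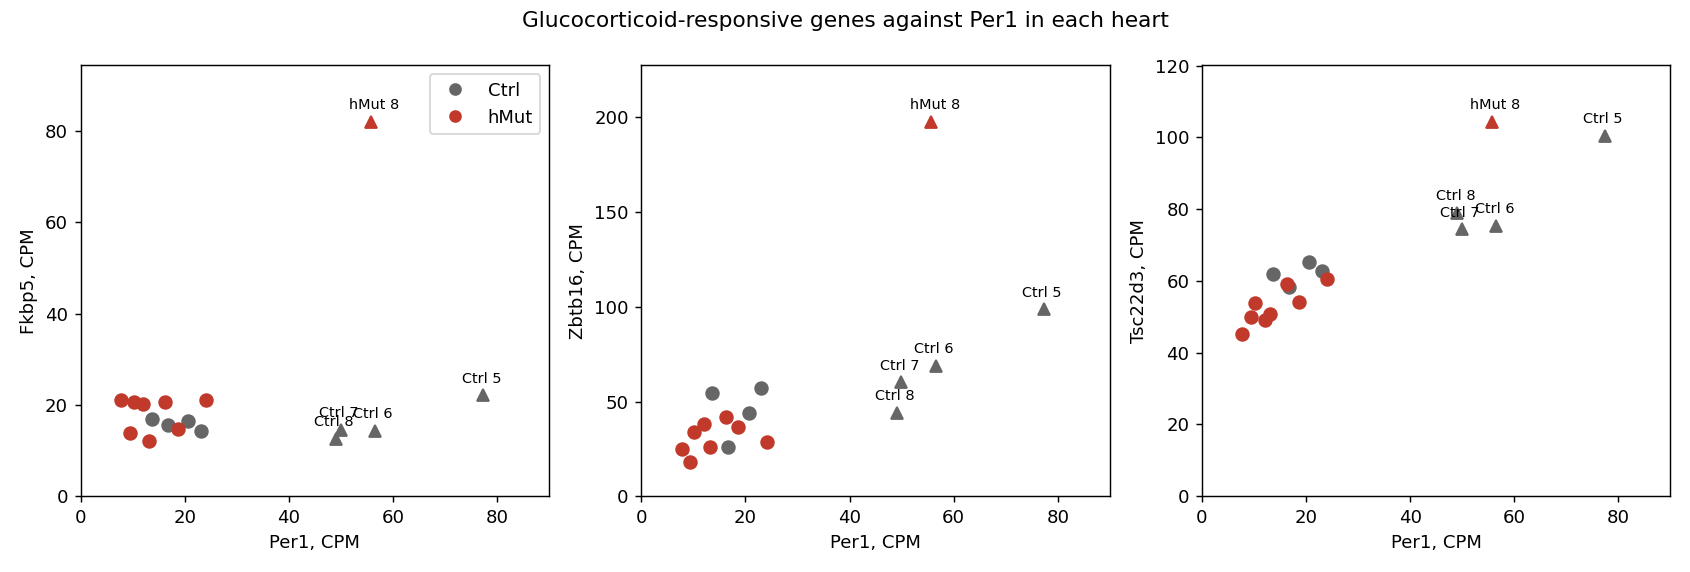
CPM of Fkbp5, Zbtb16 and Tsc22d3 against CPM of Per1, 1 point per heart, Ctrl in grey, hMut in red, with Ctrl 5 to 8 and hMut 8 as labelled triangles. hMut 8 is the highest point in each panel, and in the Fkbp5 panel Ctrl 5 to 8 lie at the level of the other hearts while their Per1 is higher.

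Of 9 temperature-linked genes, 1 passed, Hsp90aa1, a heat shock chaperone, at a log2 fold change of 0.56 (SE 0.12, edgeR adjusted p = 0.0166). Cirbp, a cold-inducible RNA-binding protein gene that is rhythmic with body temperature, had one of -0.36 (edgeR adjusted p = 0.0796) and lay at 46.62 to 73.58 CPM in Ctrl 5 to 8 and at 56.37 CPM in hMut 8. The other 12 hearts overlapped these for Cirbp, at 33.38 to 52.5 CPM. Hsph1 had a log2 fold change of 0.20 (edgeR adjusted p = 0.137). Of 8 immediate early genes, 1 passed, the stress factor gene Atf3, at 1.66 (SE 0.37, edgeR adjusted p = 0.0157), with Dusp1 at -0.34 (edgeR adjusted p = 0.228) and Egr1 at -0.32 (edgeR adjusted p = 0.420). In the 12 hearts neither Hsp90aa1 (0.42, edgeR adjusted p = 0.229) nor Atf3 (1.34, edgeR adjusted p = 0.275) passed.

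Markers of other heart cells moved with genotype to differing degrees. Their sums are scaled to the library total alone, without TMM. The TMM factors ran from 0.9146 to 0.9844 in Ctrl hearts and from 0.9563 to 1.1516 in hMut hearts. Whether the gaps between groups in these sums hold under TMM was not tested. The summed level of 3 endothelial markers was 506.5 to 636.1 CPM in Ctrl and 641.8 to 900.8 CPM in hMut hearts, with Kdr past the threshold (log2 fold change 0.39, edgeR adjusted p = 0.0407). The sum of 2 smooth muscle and pericyte markers was 87.02 to 105.6 CPM in Ctrl and 107.5 to 172.1 CPM in hMut hearts, with Pdgfrb past it (0.24, edgeR adjusted p = 0.0442). In the 12-heart fit 0 of the endothelial and 0 of the smooth muscle and pericyte markers passed. Sums of 4 fibroblast markers were 490.0 to 570.7 and 532.0 to 927.4 CPM, and of 4 macrophage markers 151.5 to 233.7 and 198.6 to 990.9 CPM, with 0 of these 8 genes past the threshold in edgeR, 7 at an unadjusted p under 0.05 and 1 called by DESeq2. Over all genes these shares were 4.62%, 25.8% and 9.19%. Cardiomyocyte marker sums overlapped, at 26290 to 34300 and 25860 to 33260 CPM. Of the 5 cardiomyocyte markers, 0 passed in edgeR, 3 had an unadjusted p under 0.05, DESeq2 called 3 as lower in hMut hearts, and their median log2 fold change was -0.24. Lymphocyte markers summed to 0.6096 to 21.9 CPM in Ctrl and 1.638 to 12.5 CPM in hMut hearts. Divided as the clock genes divide the hearts, they summed to 0.6096 to 1.638 CPM in Ctrl 5 to 8 and hMut 8 and to 1.983 to 21.9 CPM in the other 12 hearts. The sums of all other cell types overlapped between these sets of hearts, so this separation is picked from several. Erythroid markers summed to 196.8 to 1122 and 250.2 to 959.3 CPM in Ctrl and hMut hearts, and brown adipocyte markers to 17.43 to 24.65 and 21.84 to 33.81 CPM. Skeletal muscle and white adipocyte markers summed to under 1 CPM in every heart, and Ucp1, Sln, Myh4, Adipoq and Plin1 had a median of at most 3 counts. The part of cell makeup in the clock gene values was not tested.

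The genes most like Nr1d1 and Per2 over the 17 hearts were found among 11816 genes with a mean of at least 100 counts, as a description. Because the hearts fall into separate sets, a gene that differs between the sets ranks high for Per2, and the value over the 12 hearts is given second. Nr1d1 was followed most closely by Mamstr (r = 0.898 and 0.862), Cux2 (0.849 and 0.832), Ppp2r5d (0.840 and 0.777), Agtr1a (0.839 and 0.837) and Rph3al (0.836 and 0.832). Rnd3 (-0.907 and -0.897), Tlr4 (-0.900 and -0.871), Galc (-0.893 and -0.855), Rnf103 (-0.890 and -0.857) and Ttll11 (-0.889 and -0.901) ran opposite to it. For Per2 the closest were Timp3 (0.950 and 0.809), Coq10b (0.936 and 0.843), Fam76a (0.929 and 0.635), Rhobtb1 (0.919 and 0.640) and Pgm2l1 (0.914 and 0.647). Leo1 (-0.962 and -0.801), Sphk2 (-0.928 and -0.667), Spon2 (-0.899 and -0.640), Arhgef10l (-0.876 and -0.738) and Adamts4 (-0.872 and -0.598) ran opposite to Per2. Sphk2 is the gene that overlaps Dbp. Over the 12 hearts the 10 values for Nr1d1 were at least 0.777 in size, and those for Per2 ranged in size from that of Adamts4 to that of Coq10b.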

How the data were processed

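RNA was extracted from heart tissue and poly(A)-selected libraries were sequenced on a NovaSeq X Plus. The deposited values are raw read counts per gene, which the authors made with fastp, HISAT2 (version 2.2.1), GRCm39 and featureCounts (version 2.0.6) and did not normalize. The annotation release and the strand setting are not given in the sources used here. The authors' own test was DESeq2 (version 1.42.0).

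Libraries were assigned to groups from the labels. Counts were filtered with filterByExpr, normalized with TMM and tested with edgeR 4.0.16 (R 4.3.3) by the quasi-likelihood test over all 17 libraries, with genotype as the only term, Benjamini-Hochberg adjustment over the 16195 genes tested and a threshold of 0.05. Log2 fold changes are hMut against Ctrl, and the SE is the size of the log2 fold change over the square root of F. Log2 CPM used a prior count of 2. The fit was tested on simulated data. Libraries were taken as female at an Xist level above 10 CPM, here without TMM. Correlations were planned over all 17 hearts and were moved to 12 because the hearts fell into separate sets, and p-values came from 100000 permutations of the pairings, or all of them for fewer than 10 hearts. Depth limits the precision of a low gene, and 3 counts were taken as the floor, under which a gene was not detectable.

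The members and lists were chosen with earlier results of these data known. Named are the 10 members, 8 further clock genes (Bmal1, Npas2, Ciart, Nfil3, Hlf, Bhlhe40, Bhlhe41 and Rora), the 3 genes with the smallest p of each other list, and the 5 genes most like and the 5 most opposite to Nr1d1 and to Per2. Zbtb16, Tsc22d3, Mt1, Sgk1 and Ddit4 fall outside this rule, as do the markers Kdr and Pdgfrb, named because they passed. Alternatives were DESeq2 1.42.0, limma-voom 3.58.1 with quality weights, RLE, upper-quartile and mtDNA-free normalization, other filters, sex or the Bmal1 level as a term, a replicate block, libraries left out and, for correlations, a prior count of 0.5. Added after seeing the data were the fits without Ctrl 5 to 8 and hMut 8, with sex and Bmal1 together and with males only, and the correlations and SDs without those hearts. Other software was Python 3.11.15 with pandas 2.3.3, scipy 1.17.1, numpy 2.4.6 and matplotlib 3.10.9.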

Additional observations from a re-analysis of the deposited data

Results flagged for a closer look

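Of 42 combinations of a gene and a group examined, 14 had a heart whose gap to the next was large for the group's range, where chance gives about 1 in 20 for a single group. In 13 of them the heart was hMut 8. These genes move together and share that library, so the 13 are in effect 1 observation of a heart already singled out above, and the chance rate is no measure of their number. Its level was the lowest of the hMut hearts for Clock (50.03 CPM, with 69.36 next) and Bmal1 (Arntl, 3.209 CPM, with 14.61 next). It was the highest for Per1 (55.71 CPM, with 24.06 next), Per2 (26.66, with 7.698 next), Per3 (30.09, with 13.77 next) and Cry2 (55.38, with 36.17 next). The same heart was highest for Dbp (89.53 CPM, with 42.12 next), Tef (210.0, with 126.0 next), Hlf (58.04, with 22.01 next) and Ciart (18.16, with 5.453 next). It was also highest for the glucocorticoid-responsive genes Fkbp5 (82.02 CPM, with 21.08 next), Zbtb16 (197.8, with 41.72 next) and Tsc22d3 (104.4, with 60.53 next). Zbtb16 and Tsc22d3 were chosen once their values were known. Among Ctrl hearts the 1 such value was Fkbp5 in Ctrl 5 (22.13 CPM, with 16.84 next). Nr1d1, Nr1d2 and Cry1 had no such heart in either group. Per1, Per2 and Dbp in Ctrl hearts, which split 4 against 4, cannot show such a gap.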

How the results depend on the processing

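Each of the 10 members kept the sign of its fold change in 310 of 310 values over 31 alternatives, but the number past the threshold moved with the setting. Against 749 genes and 2 members in the fit as reported, DESeq2 called 1502 genes, 6 members and 4 other clock genes, and limma-voom called 2081, 7 and 8. With no filter on low counts 463 genes and 0 members passed. With sex as a term 562 genes and 1 member (Nr1d1) passed, with the Bmal1 level 200 genes and 0 members, and with both 206 and 0. Males alone gave 139 genes and 0 members, and the 12 hearts without Ctrl 5 to 8 and hMut 8 gave 75 and 0. Without hMut 6 and 9 the counts were 431 and 0. Leaving out 1 heart gave 395 to 1792 genes, 0 to 9 members and 0 to 4 other clock genes, with the most genes without hMut 2 and the most members without hMut 8. Of the 6 Per and Nr1d pairs, 3 passed over 12 hearts, 1 without the 2 farthest, 1 with genotypes centred, 1 in the 8 hMut hearts, 2 without hMut 6 and 9, and 1 to 4 with 1 heart left out. The cause of these moves was not tested. Same-numbered Ctrl and hMut hearts showed no common deviation (correlations of -0.225 to 0.339, with 1 of 8 pairs over 0.1). The pair at 0.339 was Ctrl 8 with hMut 8, both among the 5 hearts that stand apart. Such correlations cannot exclude pairing by litter or day, so whether the numbers pair the hearts is not known. With the replicate number as a block 185 genes and 0 members passed. Hour of harvest, litter and day are unknown, and the 5 hearts that stand apart are 4 of 8 controls and 1 of 9 hMut hearts. Depth limits Per2 most, at 109 to 997 counts.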
